A study of Mus musculus with 12 samples.

Results

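Skin labelled TSeL+L was compared with skin labelled TL+L in 8-week-old BALB/C mice by sequencing of oligo-dT-selected RNA. The comparison took 6 of the 12 columns of deposited gene counts, the 3 that were read as TSeL+L and the 3 of TL+L. The TSeL+L mice and the TL+L mice are described only by these treatment codes, as are mice labelled TSeL, and the control mice received PBS; strain, age and tissue are the same in all groups. The labels do not say what TSeL, TL or L stands for, how or when the agents were given, or whether the samples of a group came from separate animals. If they did not, the p-values measure only the spread between these samples, which may be technical.

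The TL+L and PBS columns carry the sample numbers of the labels, so each group has 3 libraries. The TSeL+L columns carry the code TSL, which was read as TSeL+L because it adds an L to the code TS, and every TSeL+L value depends on this reading. All 3 share the number 1 and could not be given to the 3 labelled samples one by one. In a chi-square over genes between pairs of columns, they differed by a mean of 1.38 to 1.49, close to the value of 1 that counting noise gives, against 60.9 to 184 between TL+L libraries. Their mean was therefore counted as 1 sample. The question asked of each gene was whether this TSeL+L value lay above or below all 3 TL+L libraries, and an edgeR fit over all groups added a test in which the lone TSeL+L sample was assumed to vary like the TL+L and PBS libraries.

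Skin has a stratified epidermis over a collagen-rich dermis. Basal keratinocytes, which carry keratins 5 and 14, divide and move upward, switch to keratins 1 and 10, and end as cornified cells whose envelope is built from loricrin, filaggrin and late cornified envelope proteins. In wounded or inflamed skin keratinocytes instead make keratins 6, 16 and 17, small proline-rich proteins, antimicrobial proteins and chemokines that draw neutrophils, many of them under interleukin-17 and related cytokines. Resident and recruited macrophages add interleukin-1, tumour necrosis factor, nitric oxide or, in an alternative state, proteins such as Retnla. Peripheral nerves with myelinating Schwann cells and a thin sheet of striated muscle, the panniculus carnosus, also lie in mouse skin.

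The columns held 16630580 to 17318158 expected counts each, and 15791 of 18858 genes passed the filter on low counts. Keratinocyte and fibroblast genes were high in all 8 samples, with Krt5 between 1416 and 3461 CPM, counts scaled to a common library size and Col1a1 between 1893 and 12979 CPM. One TL+L library stood apart from the others of its group. Over 12612 genes with a mean of at least 5 CPM, the median absolute log2 difference of TL+L replicate 2 was 0.35 from replicate 1 and 0.30 from replicate 3, while replicates 1 and 3 differed by 0.15. Replicate 2 lay nearer to each PBS library (0.21, 0.25 and 0.27) and to TSeL (0.26) than to either of them, and the TL+L range includes it throughout unless stated. By the same measure the TSeL+L sample lay 0.19, 0.20 and 0.14 from TL+L replicates 1, 2 and 3, and 0.32 to 0.38 from the PBS libraries. TSeL+L was thus nearer to each TL+L library than TL+L replicate 2 was to the other two. As a mean of 3 columns, the TSeL+L sample carries less counting noise than a single library, which lowers its distances. The share of these genes that differed at least 2-fold was 4.61%, 3.58% and 2.35% between TSeL+L and TL+L replicates 1, 2 and 3, against 13.6%, 2.74% and 10.3% between TL+L replicates 1 and 2, 1 and 3, and 2 and 3.

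No gene passed edgeR's quasi-likelihood test at a Benjamini-Hochberg adjusted p under 0.05, in either direction (0% of 15791 genes, with a smallest adjusted p of 1). At an unadjusted p under 0.05 the same test had 26 genes higher in TSeL+L (0.165%) and 27 lower (0.171%). DESeq2 called 1 gene, Cxcl5, limma-voom none. The 95% interval of a gene's log2 fold change, without adjustment for the number of genes, had a median half-width of 0.72. Differences larger than that could also go uncalled. In simulated data of this design, 4.8% of genes changed 2-fold and 72% of genes changed 4-fold were called. The changed genes had a TL+L mean of at least 5 CPM. Each gene was drawn independently, without a library that stood apart like TL+L replicate 2. The simulation therefore cannot show how often such changes would be called in these data. All fold changes below compare TSeL+L with TL+L, and all have an edgeR adjusted p of 1. The direction of a value is stated as above, below or inside the range of TL+L, which is a description and not a test. In bulk skin, fewer cells of a type and less RNA per cell cannot be told apart.

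TSeL+L lay inside the TL+L range for 12658 genes (80.2%) and outside it for 3133 (19.8%). It was above the range for 1309 genes (8.29%) and below it for 1824 (11.6%). Scaled by library totals in place of TMM factors, 10.4% lay above and 7.8% below, so the balance between the sides depends on the scaling. Most of the 3133 genes were just outside, with a median of 1.04-fold and a 90th percentile of 1.17-fold beyond the nearest TL+L library. At least 2-fold outside, on the scale of CPM + 1, were 6 genes above (0.038%) and 2 below (0.0127%). This count also required at least 5 CPM, in TSeL+L for genes above and in the lowest TL+L library for genes below. Prg4, at 2.05-fold above, passed the limit most narrowly. Nearest among the genes that fell short were Plaur at 1.86-fold above and Lce3c at 1.78-fold below. Rbp7, at 1.97-fold below, and Il17a, at 1.92-fold below, did not reach the minimum of 5 CPM.

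Cxcl5 and Mmp13 were the 2 genes at least 2-fold below every TL+L library. Cxcl5, a chemokine of keratinocytes and other epithelia that attracts neutrophils through Cxcr2, had 13.6 CPM in TSeL+L, against 52.0, 54.7 and 38.2 CPM in TL+L, with 104 CPM in TSeL, with 248, 277 and 290 CPM for PBS. The groups did not overlap, and TSeL+L was the lowest of all 8 samples. The TSeL+L columns had 248 to 249 counts each for this gene, and its log2 fold change was -1.83 (95% interval -2.45 to -1.20, edgeR unadjusted p = 0.00027), the smallest p of the comparison among genes that were lower. DESeq2 gave it an adjusted p of 2.17e-06. Mmp13, a collagenase made by keratinocytes and fibroblasts at wound edges, had 19.4 CPM in TSeL+L, against 114, 81.8 and 42.2 CPM in TL+L, with 262, 265 and 162 CPM for PBS. Its log2 fold change was -2.03 (95% interval -3.49 to -0.57). TSeL+L was again the lowest of the 8 samples, but the TL+L libraries themselves spread widely.

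Retnla, Nos2 and Prg4 were among the 6 genes at least 2-fold above every TL+L library, as were the muscle genes Myl3 and Myl2, which are given further on. Retnla, a secreted protein of alternatively activated macrophages that interleukin-4 induces, had 20.7 CPM in TSeL+L, against 8.58, 8.26 and 8.70 CPM in TL+L, 2.66 CPM in TSeL, with 1.46, 2.21 and 1.95 CPM for PBS. The TL+L libraries agreed closely, TSeL+L was above all of them, and both groups were above PBS. The log2 fold change of Retnla was 1.28 (95% interval 0.65 to 1.91, edgeR unadjusted p = 0.0021). Nos2, the inducible nitric oxide synthase of macrophages, had 50.6 CPM in TSeL+L, against 3.23, 19.2 and 17.6 CPM in TL+L, with 194, 151 and 262 CPM for PBS. TSeL+L therefore lay between TL+L and PBS. Prg4, lubricin, a surface-coating glycoprotein, had 39.1 CPM in TSeL+L, against 10.2, 18.6 and 18.2 CPM in TL+L, with 103, 62.6 and 40.3 CPM for PBS. Plaur, the urokinase receptor of macrophages, neutrophils and wound keratinocytes, was 1.86-fold above the range, with 39.4 CPM in TSeL+L, against 16.6, 20.7 and 20.1 CPM in TL+L, with 133, 146 and 102 CPM for PBS. Its log2 fold change was 1.04 (95% interval 0.50 to 1.58, edgeR unadjusted p = 0.0028).

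**Figure D1:**
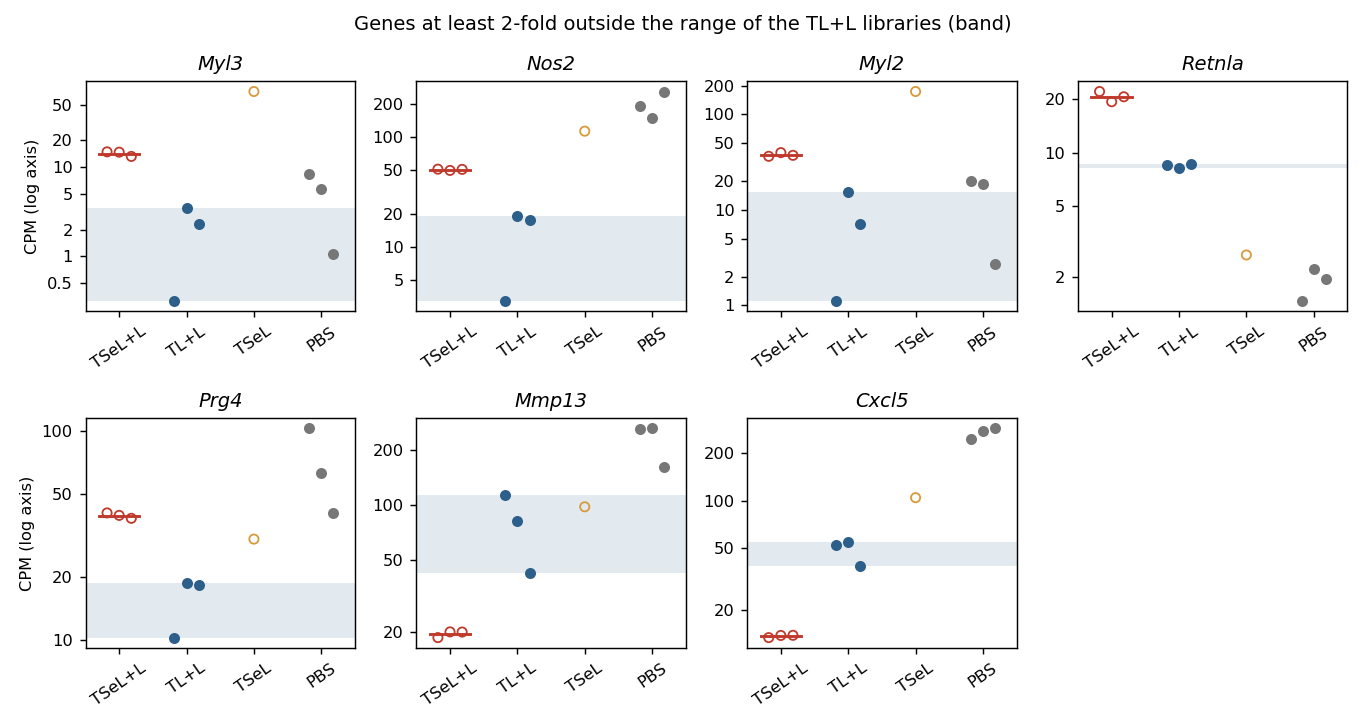
CPM on a log axis for 7 genes at least 2-fold outside the TL+L range, in TSeL+L (open circles are the 3 columns, the line is their mean), TL+L (3 libraries), TSeL (mean of 3 columns) and PBS (3 libraries), with the TL+L range as a band. Cxcl5 shows 13.6 CPM in TSeL+L under a band of 38.2 to 54.7 CPM, and Retnla 20.7 CPM over a band of 8.26 to 8.70 CPM.

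Promoter windows are printed for Retnla, Plaur and Mmp13, genes from both sides of the TL+L range for which RefSeq's table of promoters (build GRCm38.p6) has an entry, to show the DNA next to their starts. Of the 8 genes at least 2-fold outside, 4 are in the table. Each window is the 250 bases before the annotated start, on the + strand, at chr16:48842359-48842608 for Retnla, chr7:24462233-24462482 for Plaur and chr9:7272264-7272513 for Mmp13. Capitals mark matches, on either strand, to TGANTCA (the AP-1 site), to TATAAA (the TATA box) or to TTC and GAA with 4 bases between them (a STAT6 site).
Retnla: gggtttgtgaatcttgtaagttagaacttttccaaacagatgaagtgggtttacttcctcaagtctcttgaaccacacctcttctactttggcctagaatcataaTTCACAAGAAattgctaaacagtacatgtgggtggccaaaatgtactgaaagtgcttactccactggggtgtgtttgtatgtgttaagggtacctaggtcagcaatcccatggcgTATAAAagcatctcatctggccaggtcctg
Plaur: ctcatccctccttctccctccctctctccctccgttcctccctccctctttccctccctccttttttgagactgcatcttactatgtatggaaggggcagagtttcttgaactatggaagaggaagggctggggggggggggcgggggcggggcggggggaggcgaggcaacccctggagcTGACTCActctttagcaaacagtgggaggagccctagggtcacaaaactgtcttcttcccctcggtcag
Mmp13: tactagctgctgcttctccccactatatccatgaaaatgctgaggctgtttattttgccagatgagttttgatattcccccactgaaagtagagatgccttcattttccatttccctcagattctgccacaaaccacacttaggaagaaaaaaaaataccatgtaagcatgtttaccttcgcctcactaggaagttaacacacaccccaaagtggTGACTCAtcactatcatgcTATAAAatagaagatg
Retnla has TATAAA starting 30 bases and the TTC and GAA pair starting 145 bases before its start. Plaur has TGANTCA at 69 bases. Mmp13 has TGANTCA at 35 and TATAAA at 16 bases. No matches overlap. Of 32851 windows of the same length, 6.75% hold TGANTCA, 12.4% TATAAA and 5.85% the TTC and GAA pair. The matches describe these letters and are not evidence of binding. The TGANTCA match is present in a gene above the range, Plaur, and in one below it, Mmp13.

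The chemokines that attract neutrophils did not lie on 1 side. Of 8 measured members of the list of these chemokines and their receptors, 4 were below the TL+L range (Cxcl1, Cxcl3, Cxcl5 and the receptor Cxcr2), 1 was above (Cxcl2), and the median log2 fold change was -0.82, beside -0.04 over all genes. None was called. Cxcl1 had 6.73 CPM in TSeL+L, against 14.3, 12.4 and 14.6 CPM in TL+L. Cxcl3 had 19.7 CPM in TSeL+L, against 44.1, 28.3 and 31.7 CPM in TL+L. Cxcl2, which signals through the same receptor, had 48.5 CPM in TSeL+L, against 29.5, 19.98 and 28.6 CPM in TL+L, with a log2 fold change of 0.90. All 4 ligands had higher values in each PBS library than in TSeL+L and TL+L, and in PBS Cxcl1 averaged 101 ± 39.9 and Cxcl2 219 ± 51.4 CPM (SD, n = 3).

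The cytokines were split in the same way. Of 20 pro-inflammatory cytokines measured, 8 were below the range and 4 above, with a median log2 fold change of -0.58 (-0.06 without TL+L replicate 1). The 4 above were Il1a, Il1b, Il6 and Tnf, which activated macrophages can make, but bulk skin does not show which cells made them. Tnf had 11.4 CPM in TSeL+L, against 6.15, 5.52 and 4.46 CPM in TL+L, with 12.1 ± 4.46 CPM for PBS (SD, n = 3). Il1b had 332 CPM in TSeL+L, against 203, 242 and 164 CPM in TL+L, with 964 ± 271 CPM for PBS (SD, n = 3). Il6 had 2.90 CPM in TSeL+L, against 1.48, 1.76 and 2.40 CPM in TL+L, with 32.8 ± 17.3 CPM for PBS (SD, n = 3). The monocyte coreceptor for lipopolysaccharide, Cd14, was also above the range, with 98.7 CPM in TSeL+L, against 45.7, 79.1 and 73.2 CPM in TL+L. In PBS, Cd14 had 524 ± 58.9 CPM (SD, n = 3). The macrophage chemokine Ccl3 had 13.7 CPM in TSeL+L, against 1.11, 7.51 and 5.80 CPM in TL+L, with 35.2 ± 8.68 CPM for PBS (SD, n = 3).

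The 8 cytokines below the range were Il17a, Il23a, Il19, Il20, Il24, Csf3, Lif and Tslp. Il17a, a cytokine of T cells that acts on keratinocytes, had 1.09 CPM in TSeL+L, against 11.6, 3.47 and 3.01 CPM in TL+L. Il23a, a subunit of the cytokine that sustains interleukin-17-producing T cells, had 0.547 CPM in TSeL+L, against 5.03, 1.31 and 1.56 CPM in TL+L. Csf3, the growth factor of neutrophils, had 2.57 CPM in TSeL+L, against 8.48, 5.92 and 4.41 CPM in TL+L. Il24, a cytokine of the interleukin-10 family that acts on keratinocytes, had 1 to 2 counts in each TSeL+L column, against 18, 14 and 8 counts in the TL+L libraries, so that its size is poorly measured. The level of Il19 was 0.821 CPM in TSeL+L, against 13.1, 1.82 and 0.949 CPM in TL+L, where replicate 1 alone was high. Of the low members, 3 (Il20, Il24 and Il23a) had under 1 CPM in TSeL+L besides Il19, and the count below the range is 5 when each of the 3 TSeL+L columns must lie below it.

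Macrophage and lymphoid lists showed smaller differences. Over all genes, 8.29% were above the range and 11.6% below, and 33.1% and 37.5% without TL+L replicate 2. Of 22 macrophage and monocyte genes, 2 were above the range (9.09%, beside 8.29% of all genes) and 20 inside. Without TL+L replicate 2, 18 were above and 1 below. Of 19 genes of Toll-like receptors and NF-kappaB, 3 were above and 1 below, with a median log2 fold change of 0.02. Without TL+L replicate 2, 11 of these were above and 2 below. Of 17 genes of alternative macrophage activation, 5 were above the range, Retnla, Mgl2, Clec10a, Cd209f and Cd209d, and 1 was below, Il10. Arg1 and Mrc1, the arginase and mannose receptor of the same state, were inside it, with 130 CPM for Arg1 in TSeL+L, against 80.0, 224 and 71.1 CPM in TL+L. Of 25 chemokines of mononuclear and lymphoid cells, 5 were above, Ccl3, Ccl4, Ccl8, Ccl12 and Cxcl10, and 3 below, Ccl20, Ccl22 and Cxcl16. Ccl20, the keratinocyte ligand of Ccr6, had 1.64 CPM in TSeL+L, against 4.82, 2.73 and 8.20 CPM in TL+L. Of 14 Langerhans and dendritic cell genes, 5 were below and none above, among them Ccr7, with 4.10 CPM in TSeL+L, against 4.82, 7.97 and 7.64 CPM in TL+L, and the dendritic cell chemokine Ccl22. Of 28 neutrophil genes, 4 were below (14.3%) and 3 above the range (10.7%), near the shares of all genes. The summed share of counts of this list was 0.279% in TSeL+L, against 0.660%, 0.384% and 0.199% in TL+L, inside the range. All 26 interferon-stimulated genes had a positive log2 fold change, with a median of 0.36, but 24 were inside the TL+L range, with TL+L replicate 2 higher than TSeL+L for each of those 24. Without that library all 26 were above, where 33.1% of all genes were.

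Of 25 cornified envelope genes, 14 were above the TL+L range and 3 below, with a median log2 fold change of 0.38, and none was called. Flg, filaggrin, had 1912 CPM in TSeL+L, against 395, 1370 and 1118 CPM in TL+L. Lor, loricrin, had 433 CPM in TSeL+L, against 118, 280 and 322 CPM in TL+L, with 78.0 ± 36.8 CPM for PBS (SD, n = 3). Casp14, the protease that processes filaggrin, had 424 CPM in TSeL+L, against 285, 337 and 280 CPM in TL+L. Late cornified envelope genes of the Lce1 cluster made up 8 of the 14, but they are near-identical copies among which the counting may have split reads. The genes below were Cnfn, Klk7 and Spink5, of which Cnfn had 129 CPM in TSeL+L, against 258, 158 and 185 CPM in TL+L.

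In the spinous and granular layers Krt10 and Krt1 were above the range and most other markers inside. Krt10 had 3797 CPM in TSeL+L, against 1061, 2450 and 1623 CPM in TL+L, with 985 ± 207 CPM for PBS (SD, n = 3), with a log2 fold change of 1.15 (95% interval 0.04 to 2.26). Krt1, its partner, had 4671 CPM in TSeL+L, against 2321, 3713 and 2285 CPM in TL+L. Of the 15 genes of this list, 4 were above, 11 inside and none below, and the median log2 fold change was -0.04, the same as over all genes.

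In the basal layer 5 of 13 genes were below the range and none above, with a median log2 fold change of -0.21. Krt14 had 1854 CPM in TSeL+L, against 3745, 2208 and 2299 CPM in TL+L. Its partner Krt5 was inside the range, with 2218 CPM in TSeL+L, against 3461, 1811 and 3054 CPM in TL+L. The other 4 below were integrin alpha 6 (Itga6) and all 3 chains of laminin 332, which anchor basal cells to the basement membrane. For its beta chain, Lamb3, TSeL+L had 28.0 CPM, against 51.7, 36.3 and 39.3 CPM in TL+L.

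Genes of wounded keratinocytes had the lowest median of the 57 lists, at -0.94 over 20 genes, with 8 below the range, 1 above and 11 inside. Besides Mmp13, the genes below were Krt6a, Sprr1b, Sprr2h, Hbegf, Mmp10, Mmp1b and Il24, and the gene above was Plaur. Krt6a, a keratin of wound-edge keratinocytes, had 670 CPM in TSeL+L, against 2741, 1392 and 1004 CPM in TL+L, with 2602 ± 866 CPM for PBS (SD, n = 3). Hbegf, a growth factor that moves keratinocytes, had 27.9 CPM in TSeL+L, against 79.9, 43.4 and 47.1 CPM in TL+L. Krt16 and Krt17 were inside the range, with 872 CPM for Krt16 in TSeL+L, against 2709, 1602 and 725 CPM in TL+L. For all 3 of these keratins TL+L replicate 1 was the highest library of the group. Krt6a and Krt6b, and the Sprr2 genes, are close copies, and reads may have been divided among them.

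Antimicrobial and alarm genes of the epidermis were low in median (-0.77 over 16 genes), with 4 below, 12 inside and none above. Lce3c, a late cornified envelope gene that is switched on in damaged epidermis, had 5.91 CPM in TSeL+L, against 42.6, 20.7 and 11.3 CPM in TL+L. S100a7a had 13.02 CPM in TSeL+L, against 16.7, 18.5 and 23.7 CPM in TL+L. S100a8 and S100a9, the subunits of calprotectin made by neutrophils and inflamed keratinocytes, were inside the range, with 599 CPM for S100a8 in TSeL+L, against 1854, 1035 and 414 CPM in TL+L. The neutrophil receptor Cxcr2 and the protease Mmp9, which neutrophils store, were below it, and Mmp9 had 44.2 CPM in TSeL+L, against 108, 126 and 70.1 CPM in TL+L, with a log2 fold change of -1.20. Of 20 matrix-degrading enzymes and their inhibitors, 6 were below and 2 above the range. Mmp12, the macrophage elastase, was above, with 86.9 CPM in TSeL+L, against 29.4, 64.2 and 69.2 CPM in TL+L. Slurp2, a small secreted protein of the epidermis, was among the genes above, with 6.89 CPM in TSeL+L, against 2.49, 3.70 and 3.52 CPM in TL+L, with 1.41 ± 0.21 CPM for PBS (SD, n = 3).

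**Figure D2:**
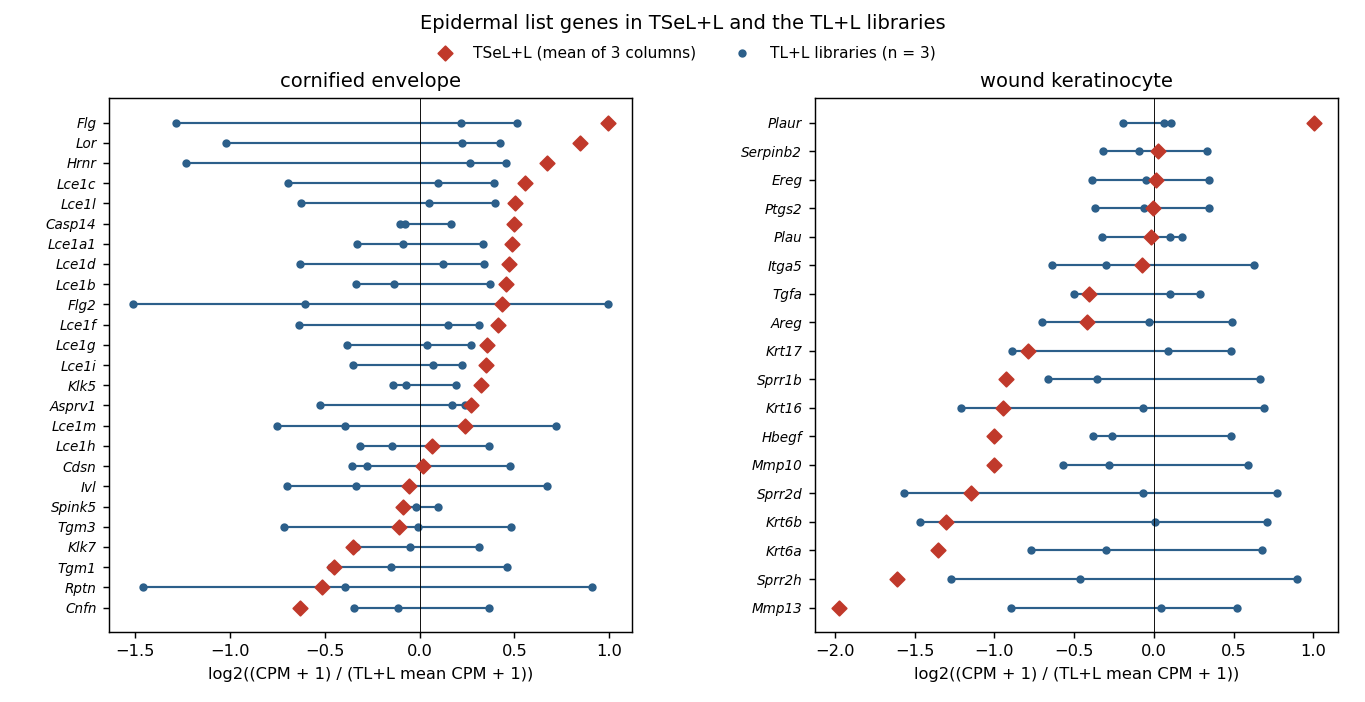
For each gene of the cornified envelope list (left, 25 genes) and the wounded-keratinocyte list (right, 18 genes, without Mmp1b and Il24, which were under 1 CPM in TSeL+L and TL+L), the red diamond is TSeL+L and the blue points joined by a line are the 3 TL+L libraries, as log2 of (CPM + 1) over the TL+L mean (CPM + 1). Flg and Lor lie to the right of all TL+L points, and Krt6a, Sprr2h and Mmp13 to the left.

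Of 11 Schwann cell genes measured, 7 were above the TL+L range and none below, with a median log2 fold change of 0.47. Mbp, myelin basic protein, had 76.3 CPM in TSeL+L, against 47.7, 55.0 and 43.2 CPM in TL+L. Prx, periaxin, had 22.7 CPM in TSeL+L, against 11.7, 12.5 and 13.3 CPM in TL+L. The genes inside the range were Sox10, S100b, Ncam1 and Ngfr, none of them a protein of compact myelin. Sox10, the lineage factor of Schwann cells and melanocytes, had 6.79 CPM in TSeL+L, against 8.90, 4.44 and 7.87 CPM in TL+L. The summed share of counts of the list was 0.0369% in TSeL+L, against 0.0233%, 0.0301% and 0.0240% in TL+L, and 0.0286% to 0.0384% in PBS. TSeL+L was thus above TL+L and within PBS.

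The muscle genes Myl3, Myl2 and Myh7 were above the TL+L range. Of the other genes of slow fibres, Myoz2 and Strit1 were also above it. Myoz2 exceeded the highest TL+L library by only 1.05-fold, and Strit1 rested on 3 to 7 counts per TSeL+L column. The remaining slow-fibre genes were inside the range, among them Tnnc1, Tnni1, Tnnt1 and Mb, and Casq2 and Sln had negative log2 fold changes (-0.48 and -0.58). Myl3, the slow essential myosin light chain, had 14.2 CPM in TSeL+L, against 0.318, 3.53 and 2.29 CPM in TL+L, 70.5 CPM in TSeL, with 8.30, 5.71 and 1.07 CPM for PBS. Myl2, the slow regulatory light chain, had 37.6 CPM in TSeL+L, against 1.11, 15.5 and 7.14 CPM in TL+L, and 173 CPM in TSeL. Myh7, the slow myosin heavy chain, had 229 CPM in TSeL+L, against 4.29, 166 and 43.3 CPM in TL+L, and 1342 CPM in TSeL. TSeL was the highest of the 8 samples for all 3 genes. Myh7 was the single gene of the 29 on the skeletal muscle list above the range, and the other 28 were inside. Without TL+L replicate 2 all 29 were above, where 33.1% of all genes were. The median log2 fold change was then 1.43, against 0.59 with all 3 libraries. The list made up 4.01% of counts in TSeL+L, against 1.07%, 4.93% and 2.05% in TL+L, 15.1% in TSeL and 1.92% to 5.17% in PBS. The share of counts from muscle genes thus varied within groups, and its part in the values of Myl3 and Myl2 was not tested. Of the 5 red blood cell genes tested, 3 were above (Hba-a1, Hba-a2 and Alas2), and their list took 0.0866% of counts in TSeL+L, against 0.00724%, 0.0553% and 0.0784% in TL+L. Hba-a1 and Hba-a2 are near-identical copies. All 12 genes of muscle regeneration had a negative log2 fold change, with a median of -0.59 (0.46 without TL+L replicate 2), and 1 was below the range. Of 8 B and plasma cell genes 3 were above, each under 1 CPM in every TSeL+L and TL+L library.

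The summed shares of hair, collagen and adipocyte genes in TSeL+L were within the spread of the 3 TL+L libraries. Hair genes took 2.57% of counts in TSeL+L, against 2.95%, 0.649% and 5.41% in TL+L, and at most 0.233% in PBS, and none of the 12 hair shaft keratins or 46 keratin-associated proteins measured lay outside the range. This rests on TL+L replicate 2, which had the smallest share of hair genes of the 3 TL+L libraries. Without it 11 of the 12 hair shaft keratins and 39 of the 46 keratin-associated proteins were below. Collagen and matrix genes took 3.36% in TSeL+L, against 1.63%, 5.53% and 3.22% in TL+L. White adipocyte genes took 0.329% in TSeL+L, against 0.264%, 0.686% and 0.305% in TL+L. No gene of the 22 of blood endothelium was outside, but 17 were above without TL+L replicate 2. Of 16 dermal papilla genes, 5 were above and none below, each by less than 1.5-fold (11 above and 2 below without replicate 2). Bmp4 was one of them, with 21.2 CPM in TSeL+L, against 19.97, 11.8 and 20.1 CPM in TL+L, so that the excess was slight. Of 32 cell cycle genes 1 was above, E2f1, and 31 were inside, among them Mki67, while 22 were below without replicate 2. Of 20 sebaceous gland genes 4 were below the range and none above, and 15 were below without replicate 2. Of all genes, 33.1% were above and 37.5% below without replicate 2, beside 8.29% and 11.6% with all 3 libraries.

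**Figure D3:**
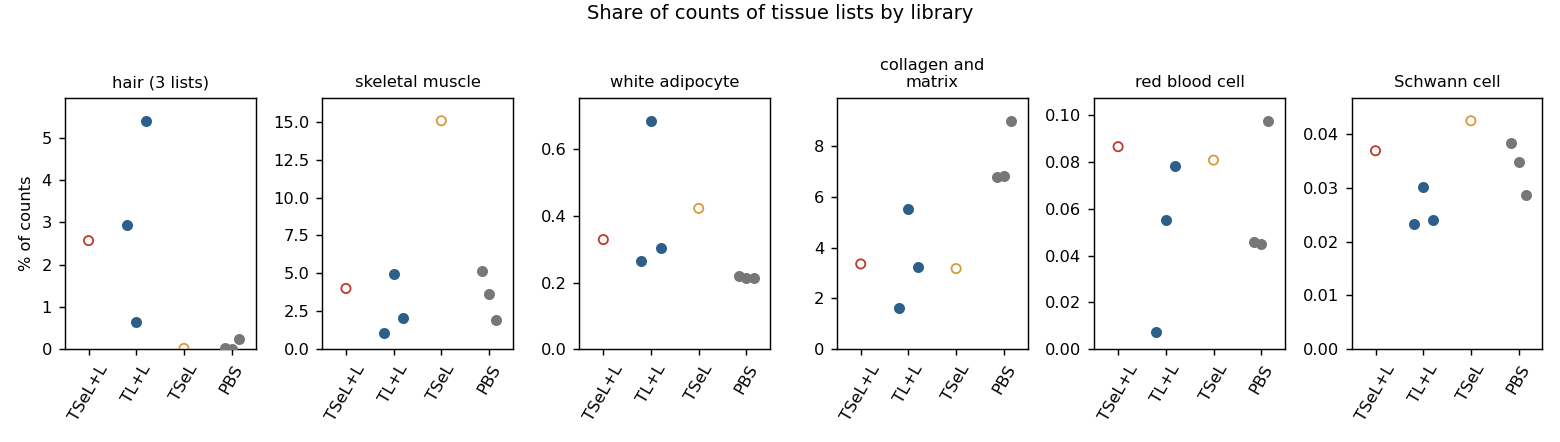
Share of all counts (%) taken by 6 tissue lists in TSeL+L (mean of 3 columns), TL+L (3 libraries), TSeL (mean of 3 columns) and PBS (3 libraries). TSeL+L lies among the TL+L libraries for hair, muscle, adipocyte and collagen genes, and above them for red blood cell (0.0866%) and Schwann cell genes (0.0369%).

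Metabolic and redox genes differed little. All 24 genes of fatty acid oxidation had a negative log2 fold change, with a median of -0.34 (-0.04 without TL+L replicate 2, near that of all genes), and 8 were below the range, each by less than 1.5-fold. The long-chain acyl-CoA dehydrogenase Acadl had 124 CPM in TSeL+L, against 139, 270 and 130 CPM in TL+L, and as for most of the list TL+L replicate 2 was the highest. That library also had the largest share of white adipocyte counts of the 3, and the part of this in the result was not tested. Selenium-dependent enzymes, which were listed because the treatment codes contain the letters Se, without knowledge that these stand for selenium, were almost all inside. All 8 glutathione peroxidases and thioredoxin reductases had a negative log2 fold change, with a median of -0.14, beside -0.04 over all genes. Of these, 1 was below the range, Txnrd3, with 15.4 CPM in TSeL+L, against 17.96, 15.8 and 20.3 CPM in TL+L. Of 21 other genes of selenoproteins and selenium handling, 2 were below (Selenos and Sephs2) and 1 above (Pstk). Hmox1, heme oxygenase 1, had 83.0 CPM in TSeL+L, against 40.3, 68.7 and 74.0 CPM in TL+L, and was 1 of 5 above the range of 31 antioxidant and glutathione genes. The stress-induced chaperone Hspa1a had 67.5 CPM in TSeL+L, against 34.8, 29.0 and 42.4 CPM in TL+L, while 5 of the 18 heat shock genes were below and 2 above.

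**Figure D4:**
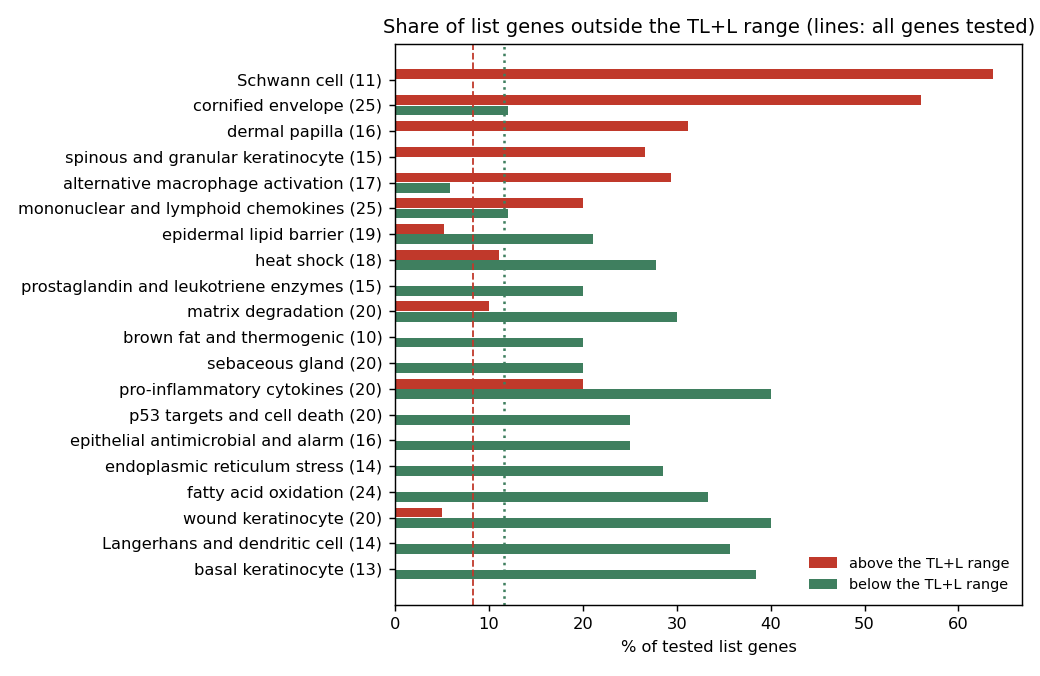
For the 20 lists of at least 10 measured genes with at least 20% of them on 1 side, the share of measured genes (%) that lie above and below the range of the 3 TL+L libraries in TSeL+L (red above, green below, number of genes in brackets), with lines at the shares over all 15791 genes (8.29% above and 11.6% below). Schwann cell (7 of 11) and cornified envelope genes (14 of 25) have the longest bars above, and genes of wounded keratinocytes and pro-inflammatory cytokines (8 of 20 each) the longest below.

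These counts rest on the spread of 3 TL+L libraries. Without TL+L replicate 1, 2 or 3 the number of genes at least 2-fold outside was 18, 131 or 41. The 8 genes at least 2-fold outside all 3 libraries are among them by construction. The share of all genes outside grew with each library left out, to 16.1% above and 20.2% below without replicate 1, 33.1% above and 37.5% below without replicate 2, and 13.6% above and 19% below without replicate 3. List counts without a library are to be read against these shares.

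Without replicate 2, which stood apart, the wounded-keratinocyte list had 11 of 20 below and 2 above, the cornified envelope list 15 of 25 above and 5 below, the Schwann cell list 9 of 11 above and 2 below, and the basal list 11 of 13 below. The antimicrobial list (7 of 16 below), fatty acid oxidation (9 of 24 below and 5 above) and the spinous and granular list (4 of 15 above and 7 below) were then near the shares of all genes. So were the pro-inflammatory cytokines, with 8 of 20 below and 5 above. Without replicate 1, 17 of the 24 genes of fatty acid oxidation and 6 of the 8 neutrophil-attracting chemokines and receptors were below. Without replicate 3, 12 genes of the wounded-keratinocyte list were below and 4 above, 13 of the 20 cytokines and 10 of the 16 antimicrobial genes were below, and 8 of the 15 spinous and granular genes and 18 of the 25 cornified envelope genes were above.

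The sizes of the list medians also depended on single libraries. Over the 18 alternatives to the test, the median log2 fold change ran from -1.15 to -0.47 for the wounded-keratinocyte list, -0.91 to -0.44 for neutrophil-attracting chemokines, -0.91 to -0.29 for antimicrobial genes, -0.42 to -0.12 for basal genes, 0.19 to 0.47 for the cornified envelope and 0.33 to 0.55 for Schwann cells. The values nearest 0 came without TL+L replicate 1 for the wounded-keratinocyte, antimicrobial and cornified envelope lists. Cytokines, at -0.06 without replicate 1, and fatty acid oxidation, at -0.04 without replicate 2, then lay close to the median of all genes.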

How the data were processed

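RNA of flash-frozen skin was extracted with Trizol and made into libraries with oligo-dT beads and the TruSeq kit, per the labels' protocols. The deposited gene table holds expected counts that the authors made before deposit; Bowtie2 and RSEM are among their tools, per the submitters' processing notes. A further 24 columns, the FPKM and TPM of the same 12 columns, were not used, so levels of different genes are not set against each other. Which genome build, annotation, tool versions and strand setting were used is not given in the sources used here; without a strand setting, reads of a gene and an antisense neighbour cannot be told apart. Of the expected counts 88.7% were whole as deposited, and all were rounded. The transcript table was not used here.

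The 3 TSeL+L columns, and the 3 TSeL columns, were averaged and counted as 1 sample each, which left 8 samples. Genes were filtered with filterByExpr and tested in R 4.3.3 with edgeR 4.0.16 by a robust, two-sided quasi-likelihood F-test with TMM factors (0.852 to 1.10, and 1.08 in TSeL+L), 1 coefficient per group, 4 residual degrees of freedom and a common biological coefficient of variation of 0.278. CPM values use these factors. Calls took a Benjamini-Hochberg adjusted p of less than 0.05. A gene was outside the TL+L range when its TSeL+L CPM lay above or below all 3 TL+L libraries, and at least 2-fold outside when the distance to the nearest one, on log2(CPM + 1), was at least 1 and the gene passed a minimum of 5 CPM. An exact permutation of 1 sample against 3 cannot give a one-sided p under 0.25.

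The comparison, 57 gene lists (1019 genes, of which 1005 matched the table and 997 were tested) and a panel of 28 genes, 14 of which were outside the range, were chosen with earlier results of these data known. Named were the 3 smallest p in each direction, up to 8 genes at least 2-fold outside in each direction, up to 3 members of the 8 lists with the median farthest from all genes, and panel genes outside the range; other list members are given as examples, and some genes are not reported here. DESeq2 1.42.0, limma 3.58.1, other scalings, filters and pseudocounts, single columns and left-out libraries were tried as alternatives. The script was tested on simulated data. Intervals and p-values cover the spread between these libraries. Columns held 16630580 to 17318158 counts, at which genes of few counts, such as Il24, are limited by counting error.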

Additional observations from a re-analysis of the deposited data

How the results depend on the processing

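Under 18 alternatives to the test, all 35 named genes kept the direction of their fold change. All of them lay outside the TL+L range and every alternative used the same TSeL+L columns, so a change of direction was hardly possible. DESeq2 had 1 lower call, Cxcl5. With all 12 columns taken as separate samples, which treats near-repeats as replicates, edgeR called 2 higher genes (Retnla, adjusted p 0.0122, and Plaur, adjusted p 0.0410) and 1 lower gene (Cxcl5, adjusted p 0.000209), and 719 genes had an unadjusted p under 0.05. The 16 other alternatives called 0 genes, with 29 to 90 genes at an unadjusted p under 0.05, except for 628 without TL+L replicate 2. When each of the 3 TSeL+L columns had to lie outside the range, 703 genes were above and 767 below. Leaving out 1 TL+L library narrows the range by construction: 2155 to 5232 genes were then above and 3005 to 5916 below, most without replicate 2, while up to 120 were at least 2-fold above and 11 to 32 at least 2-fold below. Of the 8 genes at least 2-fold outside, 7 stayed so under all 16 alternatives to that count, and Prg4 under 14, being lost with TSeL+L column 3 alone and with a pseudocount of 2 CPM. The alternatives that left out a TL+L library could not lose any of the 8. No paired analysis was possible because the TSeL+L columns carry no sample numbers that match the TL+L columns and amount to 1 sample. One TSeL+L sample limits every statement here to this library.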

Other observations

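The gene groups below were put together after their values were seen, so their counts describe these libraries and support nothing. Of 27 genes of the interleukin-17 axis, 13 were below the TL+L range in TSeL+L and none above, with a median log2 fold change of -1.01. They ran from the cytokines Il17a and Il23a to keratinocyte targets such as Cxcl1, Cxcl5, Ccl20 and Lce3c. Il17f, the other main cytokine of the family, was inside the range, with 1.59 CPM in TSeL+L, against 16.5, 3.70 and 1.51 CPM in TL+L, and so were S100a8, S100a9 and Lcn2. The receptor subunit Il17ra had 51.7 CPM in TSeL+L, against 50.1, 55.3 and 50.3 CPM in TL+L.

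Of 22 measured genes of the macrophage response to bacterial products, 14 were above the TL+L range and 1 below, with a median log2 fold change of 0.62. Acod1, which makes itaconate, had 80.2 CPM in TSeL+L, against 20.6, 47.9 and 23.9 CPM in TL+L, 52.0 CPM in TSeL, with 194 ± 70.2 CPM for PBS (SD, n = 3). Ptx3, a soluble pattern recognition protein, had 36.0 CPM in TSeL+L, against 14.99, 20.8 and 6.36 CPM in TL+L, with 73.1 ± 8.29 CPM for PBS (SD, n = 3). The negative regulator Tnfaip3 was the gene below, with 53.7 CPM in TSeL+L, against 58.0, 61.0 and 56.1 CPM in TL+L. Prostaglandin synthase Ptgs2 was inside, with 32.3 CPM in TSeL+L, against 31.0, 24.9 and 41.5 CPM in TL+L.

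Of 16 myelin genes 14 were above the TL+L range and none below, with a median log2 fold change of 0.67. They included Cldn19, the claudin of Schwann cells, at 3.28 CPM in TSeL+L, against 1.43, 1.08 and 1.34 CPM in TL+L, and Drp2, a partner of periaxin, at 12.04 CPM in TSeL+L, against 4.87, 11.0 and 7.25 CPM in TL+L. The myelin transcription factor Egr2 was inside, with 38.4 CPM in TSeL+L, against 59.9, 26.1 and 70.9 CPM in TL+L. Of 15 slow-twitch muscle genes 5 were above and none below, with a median log2 fold change of 0.57.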
